A study of Mus musculus with 23 samples.

Results

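Semaphorins, plexins and neuropilins are ligands and receptors of one guidance system, and their transcripts were followed in mouse embryonic stem cells (ESCs) labelled as untreated or as treated with tamoxifen, which in these cells induces deletion of the DNA-binding domain of KDM2B. The genes were taken by name from the deposited RNA-seq tables as all of Sema3a to Sema7a, all plexins (Plxna, Plxnb, Plxnc and Plxnd) and Nrp1 and Nrp2, which gave 31 of 23369 gene names. The 31 genes comprised 7 secreted class 3 semaphorins, 12 transmembrane semaphorins (Sema4, Sema5 and Sema6), the GPI-anchored Sema7a, 9 plexins and 2 neuropilins, each present as a single row of the tables.

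All 6 RNA-seq samples came from ESCs homozygous for a floxed Kdm2b allele (Kdm2b fl/fl), in which loxP sites flank the exon for most of the ZF-CxxC domain. The labels call the cells MS12, whereas the methods of the study describe targeting in MS12 cells and ES cell lines then raised from mice with the allele. These cells also carry an ERT2-Cre transgene at Rosa26, so the untreated and the treated group share both the floxed alleles and the inducible recombinase, and neither group holds cells without loxP sites or without Cre. The untreated group (n = 3) received no drug, and the treated group (n = 3) received 4-hydroxy tamoxifen for 72 hr, at 800 nM by the sample labels and 800 µM by the text of the series. Cells were maintained on mouse embryonic fibroblast feeders and were allowed to settle without feeders overnight before treatment. Groups follow the sample labels, whereas the file names assign all 6 samples the other way round, under which every difference below keeps its size and p-value and changes its sign. Kdm2b itself, read over the whole gene, had 27.0, 21.5 and 27.7 FPKM in untreated and 19.9, 21.9 and 25.0 FPKM in treated replicates 1, 2 and 3. These values overlap and do not resolve the floxed exon, so they do not check either assignment. The study reports that genes losing RING1B rose very modestly on average after tamoxifen. Which genes here belong to that set was not examined, so the direction under the labels was not compared with that report.

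Values are FPKM, that is fragments assigned to a gene per kilobase of transcript and scaled for sequencing depth, so levels can be compared between genes. How the samples were scaled to one another is not given. Read counts were not in these tables and the absolute depth is unknown. Steps of single fragments in low genes placed the depth of the other 5 samples between 0.654 and 0.954 of that of untreated replicate 1, and between 11524 and 11923 gene names per sample reached 1 FPKM. A gene was tested if at least 3 of the 6 samples had 0.5 FPKM or more, and 25 of the 31 genes passed, as did 12997 of all genes. The difference between groups is given as a log2 fold change of FPKM + 0.1, treated minus untreated, which understates the change of low genes. It was tested with limma across all 12997 genes, once without a block and once blocked by replicate number, since same-numbered samples of the 2 groups shifted jointly around the group means. All p-values are two-sided, and adjusted p-values use the Benjamini-Hochberg method over all genes tested.

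In this system, class 3 semaphorins are secreted and bind neuropilins, which associate with plexins to carry the signal across the membrane, whereas most other semaphorins bind plexins directly. Plexins act through a cytoplasmic GTPase-activating domain on small GTPases of the Ras family and on the cytoskeleton, and the system is best known for repelling growing axons and for shaping vessels in the embryo. Neuropilins are also co-receptors for VEGF. KDM2B binds nonmethylated CpG dinucleotides through its ZF-CxxC domain, so the CpG content of the promoters is shown here before the expression values. Promoter windows of 300 bases (250 before and 50 after the start, RefSeq, GRCm38.p6) were matched by symbol for 26 of the 31 genes, in 37 windows. Plxna1, Plxna4, Sema3b, Sema3f and Sema6a had no entry. A CpG-rich window, with at least 55% GC and an observed over expected ratio of CpG no lower than 0.6, was found for 15 of the 26 genes (57.7%), compared with 32.7% of all 27025 genes of the table. The windows of the 26 genes held a median of 15 CpG, with a range from 2 in Sema3a and Sema4d to 42 in Sema3c, and all 32851 windows a median of 7. The motif counted was CG, which reads the same on both strands, and a window describes the sequence only, not binding. In mm9 the Sema3a locus of these data starts 271191 bases downstream of the gene start in the GENCODE annotation. Its only window may therefore not describe every start of that gene.

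The 250 bases before the start are printed for the 4 genes with a single start in the table that fell in the treated samples when the replicate number was a block, so that their CpG content can be compared. They are read 5′ to 3′ on the plus strand, and capitals mark each CG.
Nrp1: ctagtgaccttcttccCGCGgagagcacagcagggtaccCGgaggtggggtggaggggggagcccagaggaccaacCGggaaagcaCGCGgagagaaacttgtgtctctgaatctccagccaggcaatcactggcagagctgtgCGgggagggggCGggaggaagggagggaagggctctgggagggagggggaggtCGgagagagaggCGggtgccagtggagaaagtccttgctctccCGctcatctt
Nrp2: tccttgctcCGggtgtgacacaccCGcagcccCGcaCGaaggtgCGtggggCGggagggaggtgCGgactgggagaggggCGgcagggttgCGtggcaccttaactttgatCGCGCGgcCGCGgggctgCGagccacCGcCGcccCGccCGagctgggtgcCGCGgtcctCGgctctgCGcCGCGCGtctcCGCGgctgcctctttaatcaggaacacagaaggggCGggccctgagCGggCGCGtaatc
Sema3e: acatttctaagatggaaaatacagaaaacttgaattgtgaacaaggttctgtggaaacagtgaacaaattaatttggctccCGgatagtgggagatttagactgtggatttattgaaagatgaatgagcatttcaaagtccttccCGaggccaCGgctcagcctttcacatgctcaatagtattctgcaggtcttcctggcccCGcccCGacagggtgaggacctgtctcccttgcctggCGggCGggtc
Plxnb1: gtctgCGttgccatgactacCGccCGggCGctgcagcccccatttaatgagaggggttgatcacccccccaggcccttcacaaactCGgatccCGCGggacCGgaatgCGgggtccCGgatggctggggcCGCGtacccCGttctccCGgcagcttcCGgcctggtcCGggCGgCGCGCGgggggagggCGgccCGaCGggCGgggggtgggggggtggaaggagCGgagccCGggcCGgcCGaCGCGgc
The Nrp1 sequence lies at chr8:128358823-128359072, that of Nrp2 at chr1:62703067-62703316, that of Sema3e at chr5:14025026-14025275 and that of Plxnb1 at chr9:109095186-109095435 of GRCm38.p6. The stretches of Nrp2 and Plxnb1 held 32 and 30 CG, those of Nrp1 and Sema3e 11 and 7. Of these 4 genes, Nrp2 and Plxnb1 had CpG-rich windows and Nrp1 and Sema3e had windows below that limit. The other genes that fell with the block, Plxnb2, Sema4b and Sema6c, had more than 1 start and each had a CpG-rich window. Plxnb2 and Sema6c each also had a window below the limit.

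Expression of the families covered more than 3 orders of magnitude. Averaged over all 6 samples, 6 genes had at least 10 FPKM, 18 had between 1 and 10 FPKM and 7 were below 1 FPKM. The 6 highest were Sema4b (29.0 FPKM), Plxna1 (21.9), Plxnb2 (21.0), Sema3e (14.6), Sema4d (14.1) and Sema6a (11.0), so that the ligands at the top of the order are mostly membrane-bound and the receptors are a plexin A and a plexin B. Nrp2 (8.73 FPKM) was above Nrp1 (1.94 FPKM) in each of the 6 samples. The 6 genes that were not tested were Plxnc1, Sema3d, Sema6d, Sema3g, Plxna4 and Plxnb3, with means between 0.350 FPKM in Plxnc1 and 0.0157 FPKM in Plxnb3.

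**Figure D1:**
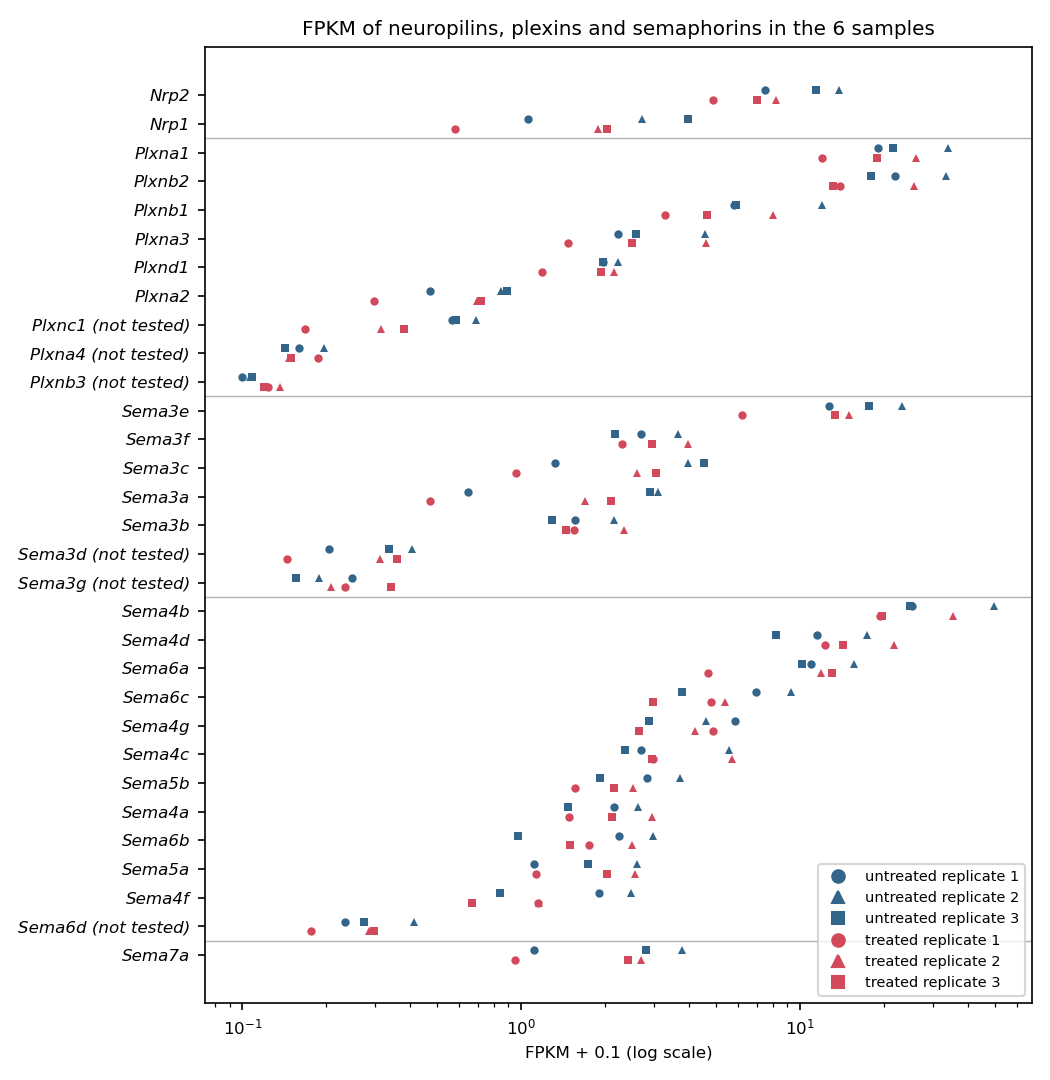
Each symbol is the level of one gene in one sample, as FPKM + 0.1 on a logarithmic axis, with untreated samples in blue, treated samples in red and the shape giving the replicate number. Genes are ordered by mean level within neuropilins, plexins, secreted, transmembrane and GPI-anchored semaphorins, and Sema4b, Plxna1 and Plxnb2 are highest, with means of 29.0, 21.9 and 21.0 FPKM.

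Most of the 25 tested genes were lower in the treated samples, and the neuropilins, Sema3e and plexins B1 and B2 were among those that fell when the replicate number was a block. The log2 fold change was below 0 for 18 of 25 genes (52.8% of all genes tested), and its median was −0.41, against −0.02 over all 12997 genes. This median depended on single libraries, and was −0.0096 without treated replicate 1, −0.19 without untreated replicate 2 and −0.63 without treated replicate 2. Within replicate numbers, 15 of the 25 genes were lower in the treated sample of all 3 numbers (28.2% of all genes) and 2 were higher in all 3 (24.8% of all genes). Without a block, 0 of the 25 genes passed an adjusted p of 0.05 in limma (0.0308% of all genes did, 0.0231% higher and 0.00769% lower). An unadjusted p under 0.05 was found without the block for 0 of the 25 and for 623 of all 12997 genes. With the replicate number as a block, 7 fell and 0 rose (6.06% and 4.33% of all genes, 10.4% in either direction). The 7 are Nrp1, Nrp2, Plxnb1, Plxnb2, Sema3e, Sema4b and Sema6c. In the same fit 12 of the 25 had an unadjusted p under 0.05, as did 3873 of all 12997 genes. None of the 25 tested genes separated the groups fully: for each of them the levels of treated and untreated samples overlapped (5.40% of all genes had all treated samples below all untreated ones, and 3.09% all above). In these bulk samples, fewer cells that express a gene and less RNA per cell cannot be told apart.

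The calls made with the block depended on the replicates and the scaling. Leaving out both samples of replicate 2 gave 0 calls, leaving out replicate 3 gave 4 lower, and leaving out replicate 1 gave 9 lower and 1 higher. The calls over all genes moved as well, with 43 lower and 36 higher without replicate 2. They were 478 and 359 without replicate 3, and 1011 and 744 without replicate 1. With quantile normalization added to the block, Nrp1 (adjusted p = 0.065, limma) and Sema6c (adjusted p = 0.081, limma) were no longer called and the other 5 were. Scaling each sample to the same FPKM sum, with the block, gave 0 calls, with all 7 genes still lower. Over all genes it gave 336 lower and 430 higher. Loci shorter than 300 bp hold between 23.9% and 67.7% of these sums, and without them the same scaling gave 9 lower genes, including all 7. It then gave 1190 lower and 421 higher over all 12952 genes tested. The median log2 fold change of all genes was 0.08 with the short loci and −0.11 without them.

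**Figure D2:**
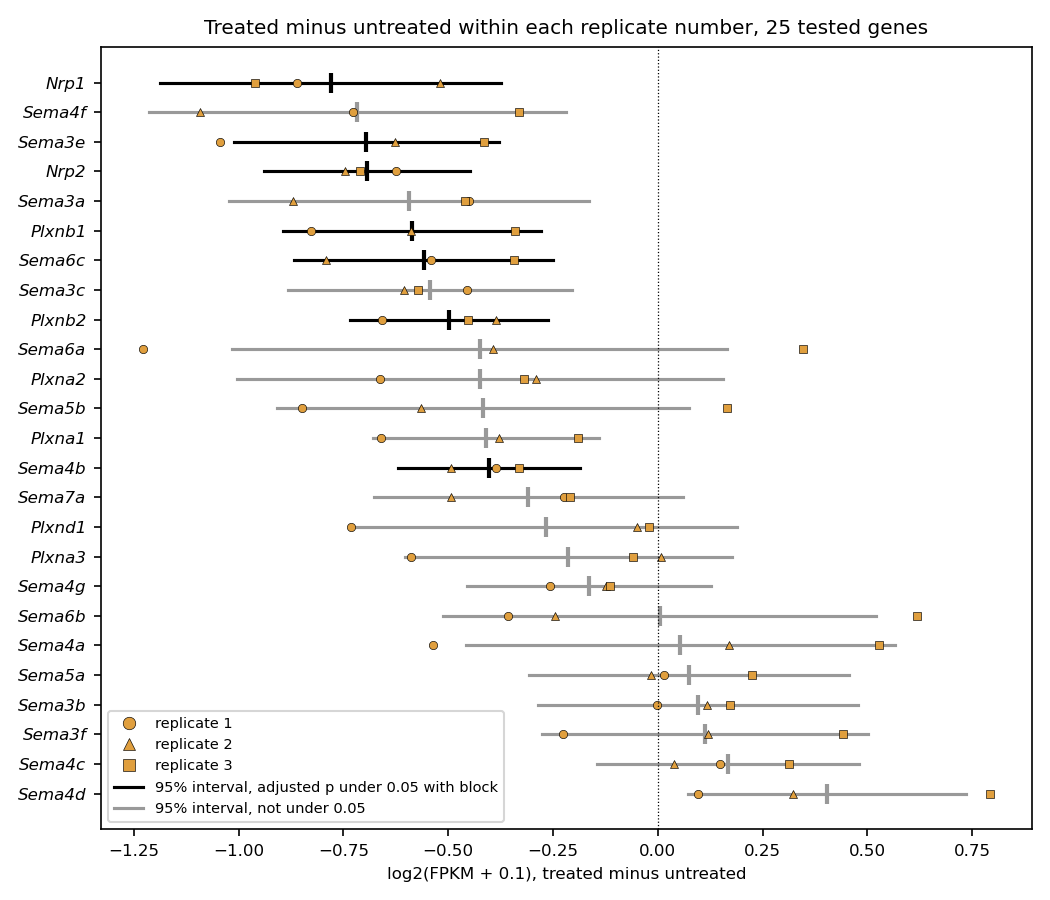
Orange symbols give the difference in log2(FPKM + 0.1) between the treated and untreated sample of replicates 1, 2 and 3 for each of the 25 tested genes, and the bar gives the mean with its 95% interval from the limma fit with the replicate block, in black where the adjusted p is under 0.05. The 7 black bars lie below 0, from Nrp1 at −0.78 to Sema4b at −0.40, and Sema4d is the highest at 0.40.

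Both neuropilins fell with the block (6.06% of all genes), and their summed level in the treated samples was 60.2% of that in the untreated ones. Nrp2, a receptor for Sema3f and for VEGF-C (chromosome 1, 62749891 to 62865266 of mm9, plus strand), had 7.42, 13.7 and 11.4 FPKM in untreated and 4.77, 8.15 and 6.91 FPKM in treated replicates 1, 2 and 3. Each treated sample was below the untreated sample of its number, and the groups overlapped only because treated replicate 2 exceeded untreated replicate 1. Nrp2 had a log2 fold change of −0.69, with a standard error of 0.31 and an adjusted p of 0.999 without the block, and of 0.11 and 0.011 with it (limma). The differences of Nrp2 within replicates 1, 2 and 3 were −0.63, −0.75 and −0.71, and so were close to one another. Nrp1, the receptor for Sema3a and VEGF-A (chromosome 8, 130882973 to 131029375, plus strand), had 0.955, 2.61 and 3.86 FPKM in untreated and 0.481, 1.79 and 1.93 FPKM in treated replicates 1, 2 and 3. Replicate 1 was the lowest of both groups, and each treated sample was below its untreated counterpart. Between the groups, Nrp1 differed by a log2 fold change of −0.78 (limma adjusted p = 0.999 and standard error 0.61 without the block, adjusted p = 0.034 and standard error 0.17 with it). The Nrp1 locus also holds Mir1903 and the Nrp2 locus 4930487H11Rik, and how fragments were divided within these loci is not known.

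Among the plexins, 5 of the 6 tested genes were lower in all 3 replicate numbers (28.2% of all genes). With the block 2, Plxnb1 and Plxnb2, fell (6.06% of all genes). Plxnb1, the receptor for Sema4d (chromosome 9, 108997950 to 109022429, plus strand), had 5.71, 12.0 and 5.81 FPKM in untreated and 3.18, 7.92 and 4.57 FPKM in treated replicates 1, 2 and 3. Replicate 2 was the highest of each group, and each treated sample was below its untreated counterpart. Plxnb1 had a log2 fold change of −0.59 (limma adjusted p = 0.999 and standard error 0.40 without the block, adjusted p = 0.034 and standard error 0.13 with it). Plxnb2, a widely expressed plexin that binds Sema4c and Sema4d (chromosome 15, 88985979 to 89011218, minus strand), had 22.0, 33.5 and 17.9 FPKM in untreated and 13.9, 25.6 and 13.0 FPKM in treated replicates 1, 2 and 3. Here too replicate 2 was the highest of each group and each treated sample was below its counterpart. Plxnb2 differed by a log2 fold change of −0.50 (limma adjusted p = 0.999 and standard error 0.33 without the block, adjusted p = 0.025 and standard error 0.10 with it).

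Plexins A pair with neuropilins to transmit class 3 signals. Plxna1 (chromosome 6, 89266308 to 89312607, minus strand) had 18.9, 33.9 and 21.5 FPKM in untreated and 12.0, 26.1 and 18.8 FPKM in treated replicates 1, 2 and 3. It was lower in 3 of 3 numbers and did not pass the test, with a log2 fold change of −0.41, a 95% interval of −0.68 to −0.14 and an adjusted p of 0.064 with the block (limma). Plxna2 ranged from 0.198 to 0.793 FPKM over the 6 samples, Plxna3 from 1.38 to 4.51 FPKM and Plxnd1, which binds Sema3e without a neuropilin, from 1.08 to 2.13 FPKM. Their log2 fold changes were −0.42, −0.21 and −0.27, and their 95% intervals with the block each included 0. For Plxnd1 the difference was −0.73 in replicate 1 and −0.05 and −0.02 in replicates 2 and 3, so its value comes mainly from the first number. Of the untested plexins, Plxnc1, the receptor for Sema7a (chromosome 10, 94253612 to 94407212, minus strand), had 0.464, 0.587 and 0.485 FPKM in untreated and 0.0681, 0.215 and 0.279 FPKM in treated replicates 1, 2 and 3. It was the one gene of the families with all treated samples below all untreated ones, at 36.6% of the untreated mean, but it was below the limit for testing and was singled out by this separation. Plxnb3 was near 0 throughout, with 0, 0.00664 and 0.00826 FPKM in untreated and 0.0240, 0.0361 and 0.0193 FPKM in treated replicates 1, 2 and 3, and these levels are too low to read a difference from. Plxna4 stayed below 0.1 FPKM in all samples.

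Of the 5 tested class 3 semaphorins, 3 were lower in every replicate number (28.2% of all genes), and the others had log2 fold changes near 0. Sema3e, the ligand of Plxnd1 (chromosome 5, 14025276 to 14256689, plus strand), was by far the most abundant, with 12.7, 23.1 and 17.7 FPKM in untreated and 6.08, 14.9 and 13.3 FPKM in treated replicates 1, 2 and 3. Each treated sample was lower than its untreated counterpart, with differences of −1.04, −0.63 and −0.41 on the log2 scale, and both samples of replicate 1 were the lowest of their groups. Averaged over the 3 numbers, Sema3e differed by −0.70 (limma adjusted p = 0.999 and standard error 0.37 without the block, adjusted p = 0.022 and standard error 0.14 with it). Sema3a, the ligand of Nrp1, had 0.543, 3.00 and 2.80 FPKM in untreated and 0.371, 1.60 and 2.01 FPKM in treated replicates 1, 2 and 3. Sema3c, which acts through both neuropilins, had 1.22, 3.86 and 4.43 FPKM in untreated and 0.863, 2.50 and 2.95 FPKM in treated replicates 1, 2 and 3. Both genes had their lowest values in replicate 1 of each group, and neither passed the test over all 6 samples. With the block, the log2 fold change was −0.59 for Sema3a (adjusted p = 0.082, limma) and −0.54 for Sema3c (adjusted p = 0.055, limma), and both were called lower once replicate 1 was left out. Sema3b and Sema3f, ligands whose genes lie 72.3 kb apart on chromosome 9, had log2 fold changes of 0.10 (95% interval −0.29 to 0.48 with the block) and 0.11 (−0.28 to 0.50). Sema3d, Sema3a, Sema3e and Sema3c lie together within 4.85 Mb of chromosome 5 (12383166 to 17236085 of mm9), and the 3 tested genes of this stretch were those that were lower in all 3 replicate numbers. The untested Sema3d ranged from 0.0443 to 0.306 FPKM and Sema3g from 0.0552 to 0.242 FPKM, and both had mixed signs within replicate numbers.

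Among the transmembrane semaphorins, 4 of 11 tested genes were lower in all 3 replicate numbers and 2 were higher in all 3. These shares were not far from those of all genes (28.2% and 24.8%). With the block 2, Sema4b and Sema6c, fell (6.06% of all genes). Sema4b, the most abundant gene of the families (chromosome 7, 87331727 to 87371410, plus strand), had 25.2, 49.8 and 24.8 FPKM in untreated and 19.3, 35.4 and 19.7 FPKM in treated replicates 1, 2 and 3. Within numbers the differences were −0.39, −0.49 and −0.33 on the log2 scale. On average Sema4b differed by −0.40 (limma adjusted p = 0.999 and standard error 0.35 without the block, adjusted p = 0.037 and standard error 0.09 with it). Sema6c (chromosome 3, 94964342 to 94977972, plus strand) had 6.89, 9.22 and 3.69 FPKM in untreated and 4.71, 5.29 and 2.89 FPKM in treated replicates 1, 2 and 3. Replicate 3 was the lowest of both groups, and each treated sample was below its untreated counterpart. Sema6c had a log2 fold change of −0.56 (limma adjusted p = 0.999 and standard error 0.38 without the block, adjusted p = 0.040 and standard error 0.13 with it). Sema4f and Sema4g were also lower in 3 of 3 numbers, with log2 fold changes of −0.72 (95% interval −1.21 to −0.22 with the block) and −0.16 (−0.46 to 0.13), and neither passed the test.

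Sema4d, a ligand of Plxnb1 and Plxnb2, had a positive log2 fold change. The gene (chromosome 13, 51796617 to 51889013, minus strand) had 11.4, 17.3 and 8.15 FPKM in untreated and 12.2, 21.7 and 14.2 FPKM in treated replicates 1, 2 and 3. It was higher in the treated sample of each number, by 0.10, 0.32 and 0.79, with a mean of 0.40 (95% interval 0.07 to 0.74 with the block) and an adjusted p of 0.11 in limma. Only without replicate 1 was it called higher (adjusted p = 0.014, limma with the block). Its 3 promoter windows in the table held 2 or 3 CpG each, whereas the windows of Sema4c held 30 and 19 CpG and were CpG-rich. A relation between CpG content and the direction of the difference was not tested. Sema4c, a ligand of Plxnb2, was likewise higher in 3 of 3 numbers, by 0.15, 0.04 and 0.31, and its mean of 0.17 had a 95% interval of −0.15 to 0.48. Sema6a, a ligand of plexins A2 and A4, had 10.9, 15.6 and 10.1 FPKM in untreated and 4.59, 11.8 and 12.9 FPKM in treated replicates 1, 2 and 3. Its difference ran from −1.23 in replicate 1 over −0.39 in replicate 2 to 0.35 in replicate 3, and so had no common direction. Without replicate 3, Sema6a was called lower with the block (adjusted p = 0.048, limma). Sema4a, Sema5a, Sema5b and Sema6b had mixed signs as well, with means between −0.42 for Sema5b and 0.08 for Sema5a, and Sema6d ranged from 0.0767 to 0.312 FPKM. Sema7a, the GPI-anchored ligand of Plxnc1 and of integrins, ranged from 0.849 to 3.68 FPKM and was lower in 3 of 3 numbers, with a log2 fold change of −0.31 (95% interval −0.68 to 0.06 with the block).

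**Figure D3:**
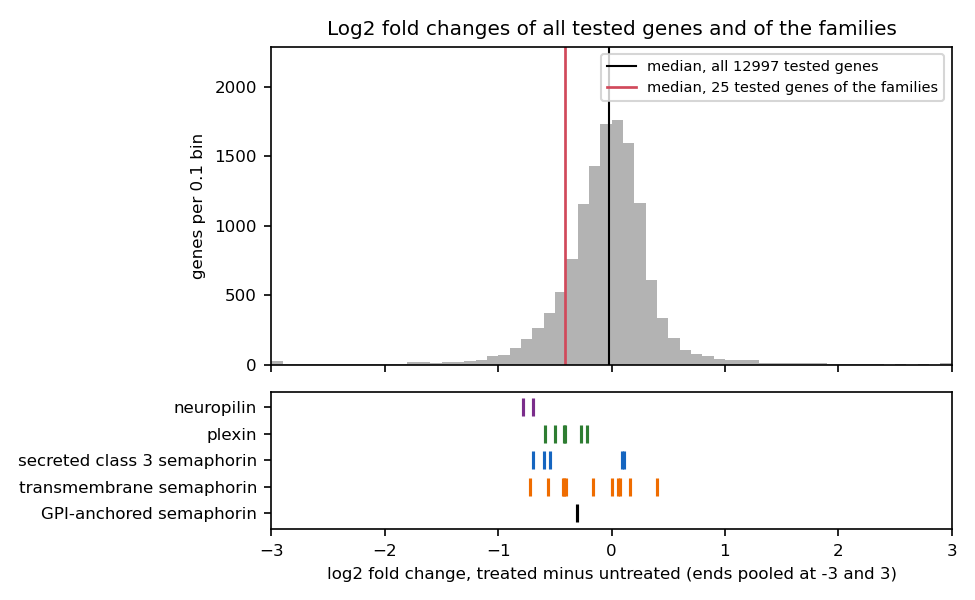
The upper panel shows the log2 fold changes (treated minus untreated) of all 12997 tested genes in bins of 0.1, with the outermost bins holding all values beyond −3 and 3, and the lower panel marks each tested gene of the families by class. The median of the 25 genes, −0.41, lies to the left of the median of all genes, −0.02, and both neuropilins lie left of all plexins.

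Levels of these families also differed between the replicate numbers. Of the 25 tested genes, 19 were highest in replicate 2 of both the untreated and the treated group (20.4% of all genes). For Sema4b the untreated values of replicates 1 and 3 were 25.2 and 24.8 FPKM beside 49.8 FPKM in replicate 2. The summed level of the 9 plexins was 51.5, 87.4 and 50.9 FPKM in untreated and 31.8, 67.0 and 41.6 FPKM in treated replicates 1, 2 and 3. That of the 12 transmembrane semaphorins was 72.6, 116.1 and 58.4 FPKM, and 55.1, 95.3 and 63.3 FPKM. For both families replicate 2 was above the other samples of its group, and the treated sum was below the untreated sum of the same number except for the transmembrane semaphorins in replicate 3. The 7 class 3 semaphorins summed to 18.7, 36.0 and 28.5 FPKM in untreated and 11.1, 25.4 and 22.9 FPKM in treated replicates 1, 2 and 3, and here replicate 1 was lowest in both groups. The median difference over the 25 genes was −0.54, −0.39 and −0.19 in replicates 1, 2 and 3, with 22, 19 and 16 of the genes lower in the treated sample. Over all genes tested the same medians were −0.06, 0.04 and −0.02.

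**Figure D4:**
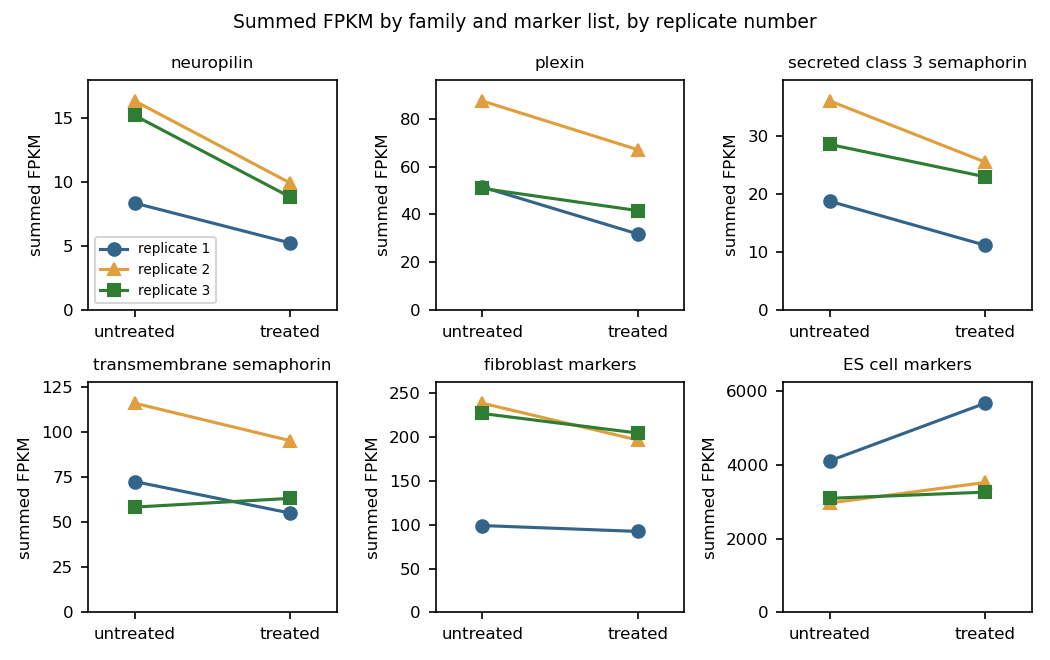
Lines join the untreated and the treated sample of the same replicate number and show summed FPKM for the 2 neuropilins, the 9 plexins, the 7 class 3 and the 12 transmembrane semaphorins, and for the fixed lists of 12 fibroblast and 10 ES cell markers. The neuropilin lines all slope down, from between 8.37 and 16.4 FPKM to between 5.25 and 9.94 FPKM, and the fibroblast markers are lowest in replicate 1 of both groups.

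Markers of other cell types were read from fixed lists, including one for fibroblasts, the feeders on which the cells had been kept. All 10 ES cell markers were expressed, with Pou5f1 between 369.3 and 832.1 FPKM, and none was called in either fit (10.4% of all genes were with the block). The 12 fibroblast markers summed to 99.1, 238.8 and 227.0 FPKM in untreated and 92.4, 196.7 and 204.7 FPKM in treated replicates 1, 2 and 3. S100a4 made the largest part of this sum, with 51.7, 122.7 and 137.8 FPKM, and 39.7, 85.8 and 121.9 FPKM. Col1a1 had 15.6, 40.3 and 31.2 FPKM, and 19.3, 38.2 and 29.7 FPKM, while Lum did not exceed 0.202 FPKM. Col1a1, Col1a2, Col5a1, Thy1 and Fbn1 were highest in replicate 2 of both groups, as were most of the tested genes of the families. S100a4 and Twist1 were highest in replicate 3 of both. The fibroblast sum was thus lowest in replicate 1 of both groups, as were 11 of the 25 tested genes of the families (25.4% of all genes), namely Nrp1, Nrp2, Plxna1, Plxna2, Plxna3, Plxnb1, Sema3a, Sema3c, Sema3e, Sema5a and Sema7a. The part of fibroblast RNA in these levels was not tested. Between the groups, the median log2 fold change of the 11 tested fibroblast markers was 0.02. In all 3 replicate numbers 3 of them were lower (28.2% of all genes), namely S100a4, Fbn1 and Twist1. Of the 11 markers 1 (6.06% of all genes), the mesodermal factor Twist1, fell with the block (−0.84, adjusted p = 0.016, limma). S100a4 (−0.36, adjusted p = 0.062, limma with the block) and Fbn1 (−0.60, adjusted p = 0.079, limma with the block) did not pass the test. Of the 10 neural markers, 7 were tested and 4 fell with the block (6.06% of all genes), namely Pax6 (−1.73), Sox1 (−0.97), Elavl3 (−0.67) and Nes (−0.55). Tubb3, the most abundant of the 10, and Ncam1 had log2 fold changes of 0.15 and 0.60 and did not pass the test. The summed level of the neural markers was between 80.9 and 102.2 FPKM in untreated and between 75.7 and 87.6 FPKM in treated samples, and Dcx and Neurog2 were below 1 FPKM throughout. Of the 9 primitive endoderm markers, 5 were tested and 3 fell with the block (6.06% of all genes), Gata6 (−1.43), Gata4 (−0.85) and Lamb1 (−0.52). Dab2 (0.23) and Pdgfra (−0.44) did not pass the test. The endoderm markers summed to between 44.7 and 68.9 FPKM in untreated and between 27.2 and 48.7 FPKM in treated samples. No endothelial marker was called, among 3 tested of 6 (10.4% of all genes were called with the block). The 4 neural and 3 endoderm genes that fell had the direction of the neuropilins and Sema3e, whereas Tubb3, Ncam1 and Dab2 did not, and their part in those differences was not tested.

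The partners of the families were read in the same way. Of 33 genes that transmit semaphorin signals inside the cell, 32 were tested, 0 were called without the block, and 3 rose and 1 fell with it. With 4 of 32 called, against 10.4% of all genes, the share was near the background, and the calls are given for the single genes only. Those that rose were Mical1, a redox enzyme that disassembles actin below plexins A (4.69 ± 1.01 FPKM in untreated and 7.78 ± 1.55 FPKM in treated samples, SD, n = 3 each), the kinase Pak1 (17.9 ± 4.82 and 23.9 ± 5.87 FPKM) and the GTPase Rhoa (144.1 ± 26.3 and 184.7 ± 37.3 FPKM). Crmp1, a collapsin response mediator, fell from 37.3 ± 5.78 to 24.9 ± 2.49 FPKM (SD, n = 3). The adjusted p-values of the 4 genes with the block were 0.017, 0.037, 0.049 and 0.020 in limma, in the order given. The median log2 fold change of the 32 genes was −0.04, and abundant members such as Cfl1 (376.0 to 683.3 FPKM) and Rac1 (73.6 to 109.4 FPKM) had values of 0.19 and −0.04 that did not pass the test.

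Of 16 co-receptors and alternative partners, mostly cell-surface proteins, 12 were tested, with a median log2 fold change of −0.55. In all 3 replicate numbers 10 of the 12 were lower (28.2% of all genes). With the block, 4 fell and 0 rose (6.06% and 4.33% of all genes). They were the VEGF receptors Flt1 (−0.97, adjusted p = 0.022, limma) and Flt4 (−0.76, adjusted p = 0.044, limma), the kinase Erbb2 (−0.62, adjusted p = 0.022, limma), which associates with plexins B, and Itgb1 (−0.40, adjusted p = 0.041, limma), an integrin subunit through which Sema7a acts. Itgb1 had 95.2, 210.6 and 145.6 FPKM in untreated and 80.6, 151.3 and 104.5 FPKM in treated replicates 1, 2 and 3. Replicate 2 was again the highest of each group. The ligands Vegfa (−0.02), Vegfb (−0.09) and Vegfc (−0.41) did not pass the test. Their adjusted p-values were 0.96, 0.58 and 0.088 in limma with the block. Vegfc was lower in the treated sample of all 3 numbers.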

How the data were processed

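Directional paired-end libraries were made from polyA+ RNA of Kdm2b fl/fl ESCs. The authors aligned reads to mm9 with Tophat2 and deposited FPKM per gene from cuffdiff (v2.1.1) on a refGene set. How cuffdiff scaled the libraries, and whether counting used strand, is not given in the sources used here. Rows were summed by gene name, and 6 names with a failed status in any sample were left out. Log2(FPKM + 0.1) was fitted with limma 3.58.1 in R 4.3.3 (lmFit, eBayes with trend) for genes with 0.5 FPKM or more in at least 3 samples, with no block or blocked by replicate number, at a threshold of 0.05. The code was tested on simulated data. Same-numbered samples had correlations of their deviations from the group means of 0.54, 0.61 and 0.51 across genes, and the pairing comes from the label numbers and this check. The labels do not say what the numbers share, and do not say that the RNA samples came from separate cultures. Without the block, p-values therefore measure the spread between these samples within the groups. With the block they measure the spread of the differences within replicate numbers. In both fits limma moderates this spread over all genes tested. The relative depth is the commonest ratio between samples of FPKM under 0.1.

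The genes were chosen by name, and the gene lists and tests were chosen with earlier results of these data known. Values in all 6 samples are given for genes called in either fit, genes without overlap between groups and the 6 most abundant tested genes, and Sema3a, Sema3c and Nrp1 are compared by replicate after their values were seen. Of the pathway lists, genes called in either fit and the 3 most abundant are named, and Vegfc was added after its values were seen. Of the marker lists, a selection made after their values were seen is named. Alternatives were a pseudocount of 1 or 0.01, no filter, 1 FPKM in all 6 samples, scaling to TPM, quantile normalization, the block, leaving out samples, the highest row per name, eBayes without a trend and the ratio of means. File coordinates were written from 1, and strand was taken from the GENCODE annotation of NCBIM37. Python 3.11.15 with pandas 2.3.3 was used. ChIP-seq samples were not analysed here. The values of 1 marker gene are not reported here.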

Additional observations from a re-analysis of the deposited data

How the results depend on the processing

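Without the block, no alternative gave a call among the tested genes. The replicate block gave 7 lower genes, the block with quantile normalization 5, and, chosen after seeing the data, the block with a pseudocount of 1 gave 8, the block with TPM scaling after removal of loci under 300 bp 9, and the block with TPM scaling of all loci 0. Over all 12997 genes the block gave 563 higher and 787 lower genes against 3 and 1 without it, and the block with quantile normalization 558 and 586. With the block and a pseudocount of 1 these numbers were 659 and 931, and with TPM scaling of all loci 430 and 336. With TPM scaling after removal of loci under 300 bp they were 421 and 1190 of 12952 genes. Leaving out a sample or a replicate number gave between 0 and 9 lower genes and between 0 and 1 higher, the calls arising only with the block (9 lower and 1 higher without replicate 1, 4 lower without replicate 3, 0 without replicate 2). Over all genes the same fits gave 1011 lower and 744 higher, 478 and 359, and 43 and 36, in that order. The median log2 fold change of the tested genes then ran from −0.63 without treated replicate 2 to −0.0096 without treated replicate 1, and was −0.19 without untreated replicate 2.

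Only Sema6b, Sema4a and Sema5a changed sign when all samples were kept, each with a value near 0. Sema6b (0.0047) became −0.025 with a pseudocount of 1, with or without the block, −0.11 as the ratio of group means, and −0.075 with the block, TPM scaling and no loci under 300 bp. Under the last setting Sema4a became −0.030 and Sema5a −0.0076. Leaving out samples turned the sign of further genes, none of which was called with all 6 samples. The ranges were −0.64 to 0.19 for Plxna3, −1.33 to 0.075 for Sema3a, −0.12 to 0.30 for Sema3b, −0.092 to 0.31 for Sema3f, −0.19 to 0.35 for Sema4a, −0.15 to 0.55 for Sema4c, −0.45 to 0.094 for Sema4g, −0.24 to 0.42 for Sema5a, −0.81 to 0.046 for Sema6a, −0.46 to 0.34 for Sema6b and −0.83 to 0.17 for Sema7a. With the block, leaving out replicate 3 gave −0.052 for Sema3f, −0.18 for Sema4a, −0.00038 for Sema5a and −0.30 for Sema6b, and leaving out replicate 2 gave −0.0037 for Sema4a. The cause of these changes was not tested. Without read counts, no counting error can be given for the low genes.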

Other observations

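Other axon guidance families were read from a fixed list of 22 netrin, slit and repulsive guidance genes and their receptors. Only 9 passed the filter on low values, with a median log2 fold change of −0.37. In all 3 replicate numbers 6 of the 9 were lower in the treated sample (28.2% of all genes). With the block, 2 fell and 0 rose (6.06% and 4.33% of all genes), and 0 were called without it. Ntn1, a secreted guidance cue, had 6.66, 11.3 and 8.16 FPKM in untreated and 3.60, 6.52 and 4.44 FPKM in treated replicates 1, 2 and 3, so that no treated sample reached the untreated sample of its number. Ntn1 had a log2 fold change of −0.84 (limma adjusted p = 0.0071 and standard error 0.11 with the block). Neo1, a receptor for netrins and repulsive guidance molecules, had 9.01, 17.1 and 11.0 FPKM in untreated and 5.97, 12.9 and 8.76 FPKM in treated replicates 1, 2 and 3. For Neo1 the log2 fold change was −0.44 (limma adjusted p = 0.044 and standard error 0.11 with the block). Unc5b, a netrin receptor, was the most abundant gene of the list, with a range from 8.33 to 21.6 FPKM and a log2 fold change of −0.28 that did not pass the test. As in the plexins, replicate 2 was the highest of each group for all 3 genes.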
